A study of Mus musculus with 15 samples.

Results

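The transcripts of 10 enzymes that carry muscle glycolysis and lactate metabolism were followed in quadriceps of 15 mice: hexokinase 2 (Hk2), muscle phosphofructokinase (Pfkm), glucose-6-phosphate isomerase (Gpi1), aldolase A (Aldoa), triose-phosphate isomerase (Tpi1), muscle phosphoglycerate mutase (Pgam2), muscle enolase (Eno3), pyruvate kinase (Pkm) and both main subunits of lactate dehydrogenase (Ldha and Ldhb). They were chosen by name, as the isoforms abundant in muscle, and not by a measured value, though earlier results of these data were known. All 10 were found among the 39179 gene identifiers that were counted in every mouse. The series compared C57BL/6 mice with V338Y mice of the same background, which carry the V338Y mutation in both alleles of Mrps5, a protein of the small subunit of the mitochondrial ribosome. The mutation makes mitochondrial translation less accurate, and the methods name no promoter or Cre driver that would limit it to muscle. There were 4 WT and 4 V338Y mice at 3 mo of age and 3 WT and 4 V338Y mice at 19 mo. The labels and methods name no treatment for any group. The mouse numbers used here, 1 to 4 at 3 mo and 2 to 5 at 19 mo, are those of the labels.

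Glycolysis turns glucose into pyruvate in the cytosol and yields ATP without oxygen. Hexokinase traps glucose in the cell as glucose 6-phosphate, and phosphofructokinase commits the sugar to breakdown. The middle enzymes split and rearrange the phosphorylated sugar, and pyruvate kinase makes pyruvate. Lactate dehydrogenase, a tetramer of A and B subunits, interconverts pyruvate and lactate and so recycles the cofactor NADH. Fast-twitch fibres, of which the mouse quadriceps mostly consists, hold these enzymes at high levels and favour the A subunit, whereas slow and oxidative fibres and the heart favour the B subunit.

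Between 8250653 and 18968132 counts per mouse were assigned to genes, and the 10 enzymes took 1.37 to 2.89% of them. Levels are given as CPM, the count scaled to library size after TMM, a correction for differences in library composition. Skeletal muscle markers were abundant in every mouse (5 genes, summed level 109915 to 221144 CPM), while the heart markers Nppa and Nppb were at 0 counts in all 15 mice. Mrps5 itself was at 21.2 to 27.5 CPM at 3 mo and 15 to 19.3 CPM at 19 mo, and such a count does not show a point mutation. The ages also differed in sex-linked transcripts. Xist, transcribed from the inactive X chromosome, was at 506 to 631 CPM in the 19 mo mice but 0 to 0.575 CPM at 3 mo, and the Y-linked Ddx3y was at 163 to 202 CPM at 3 mo but 0 to 0.0827 CPM at 19 mo. These values go against the methods, which call the 3 mo mice female. Age and sex therefore cannot be told apart in any comparison of 3 mo with 19 mo mice. Both 19 mo mice numbered 5, a WT and a V338Y mouse, also stood apart in fibre-type transcripts. Results of the 10 enzymes that rest on these mice are given with and without them.

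Expressed per kb of exon, so that genes could be compared, the enzymes covered a wide range of levels. In 3 mo WT mice Aldoa led with 4104 ± 237 CPM per kb (SD, n = 4), followed by Eno3 with 2471 ± 366 CPM per kb and Pgam2 with 1102 ± 116 CPM per kb. Pfkm was at 809 ± 64.3 CPM per kb. Tpi1, Ldha and Pkm followed with 599, 596 and 551 CPM per kb, and the ranges of neighbours in this trio overlapped, so that their order is not set. Gpi1 was at 83.1 ± 5.1 CPM per kb, Hk2 at 53 ± 2.88 CPM per kb and Ldhb at 37.2 ± 4.54 CPM per kb. The other neighbours in this order did not overlap between mice. V338Y mice of 3 mo had the same order, apart from the trio, where neighbours overlapped again. At 19 mo more neighbours overlapped. From Pfkm through Pgam2, Ldha and Pkm to Tpi1 each overlapped with the next in both genotypes, as did Gpi1, Hk2 and Ldhb, and in V338Y mice Aldoa overlapped with Eno3.

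The muscle isoform made up nearly all of the transcript at each step before lactate dehydrogenase that has several isoforms. Its share, per kb and summed over the isoforms listed for that step, was 91.3 to 96.8% for Hk2 across the 15 mice. It was at least 99.1% for Pfkm, 99.8% for Aldoa, 99% for Pgam2, 99.2% for Eno3 and 99.9% for Pkm. Of these steps, hexokinase was thus the one where other isoforms contributed most. Phosphofructokinase, mutase and enolase were supplied almost entirely by the muscle gene in both genotypes and at both ages. Few close copies of the enzymes were found that could take reads from them. With at least 95% identity over at least 200 bases, Gpi1, Ldha and Ldhb each had 1 such copy among annotated transcripts, and its counts came to at most 0.174% of those of the enzyme.

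Ldha and Ldhb, whose age values differ below, and Pgam2, with the largest fall in WT mice, are shown with their upstream sequence. The 250 bases before the RefSeq transcription start are given, 5′ to 3′ on the strand of the gene (RefSeq, build GRCm38.p6). RefSeq gives 2 starts for Ldha, and the window of the upstream start is printed. This window is chr7:46845554-46845803 on the plus strand, inside an intron of a longer annotated Ldha transcript. The Ldhb window is chr6:142507958-142508207 and the Pgam2 window chr11:5803797-5804046, both on the minus strand and upstream of the annotated gene. The bases that follow the start were found near the front of an annotated transcript of the gene for only 1 of the printed windows. Capitals mark matches, on either strand, to the core of the hypoxia response element, ACGTG or GCGTG, or to CTANNNNTAG. This frame is a form of the outer letters of the site of the muscle factor MEF2, with any letters between.
Ldha: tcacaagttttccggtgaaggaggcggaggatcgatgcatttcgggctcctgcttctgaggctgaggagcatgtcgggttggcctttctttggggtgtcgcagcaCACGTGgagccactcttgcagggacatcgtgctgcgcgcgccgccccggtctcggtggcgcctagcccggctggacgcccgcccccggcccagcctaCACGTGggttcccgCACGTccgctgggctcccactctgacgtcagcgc
Ldhb: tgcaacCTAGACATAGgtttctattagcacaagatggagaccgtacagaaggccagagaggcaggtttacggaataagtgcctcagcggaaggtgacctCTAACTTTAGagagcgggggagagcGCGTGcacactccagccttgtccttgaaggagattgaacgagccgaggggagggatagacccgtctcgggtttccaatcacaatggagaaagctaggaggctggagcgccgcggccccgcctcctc
Pgam2: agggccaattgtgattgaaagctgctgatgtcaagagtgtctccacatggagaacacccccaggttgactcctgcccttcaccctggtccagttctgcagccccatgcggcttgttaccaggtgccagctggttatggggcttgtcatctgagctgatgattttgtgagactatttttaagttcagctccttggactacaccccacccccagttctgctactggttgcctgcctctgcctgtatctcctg
The Ldha window held 5 matches to the hypoxia core, as some overlap on opposite strands, and 0 to the MEF2 frame. The window of the other Ldha start, chr7:46846832-46847081, held 1 hypoxia core and 0 MEF2 frames. A count of at least 5 occurred in 1.01% of 32851 mouse promoters. The Ldhb window held 1 hypoxia core and 2 MEF2 frames, and the Pgam2 window held neither pattern. The full MEF2 site has only A or T between its outer letters and may end in A. Both Ldhb frames hold a C between the outer letters and so are not full sites. The Pgam2 window holds ctatttttaa, which has the full form but ends in A and was not counted. At least 1 hypoxia core was found in 38.6% of all promoters of this length and a MEF2 frame in 3.2%. A match describes letters in the window, a missing match says only that these letters are not there, and binding was not measured in these mice.

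**Figure D1:**
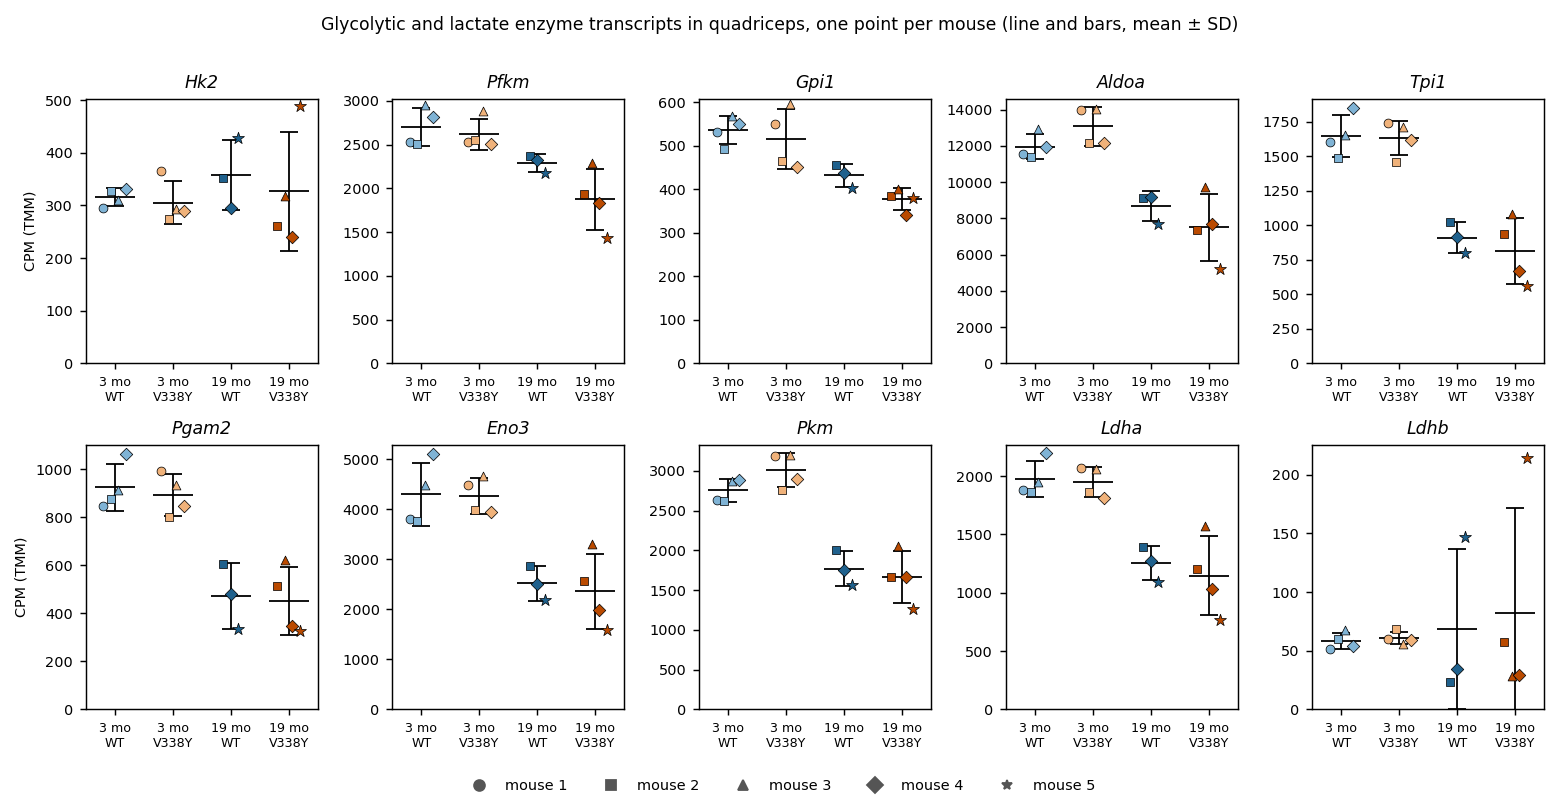
Level of each of the 10 enzymes in every mouse, in CPM on a linear axis from 0, by group. Points are single mice, with the shape giving the mouse number, and lines and bars show the mean ± SD (n = 4, 4, 3 and 4), with the lower bars of Ldhb at 19 mo cut at 0. From Aldoa to Ldha every 19 mo mouse lies below every 3 mo mouse, whereas Hk2 and Ldhb are highest in the 19 mo mice numbered 5.

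The first question was how these transcripts differed between young and old muscle. In WT mice 7 of the 10 enzymes were lower at 19 mo and 0 were higher (edgeR quasi-likelihood test, adjusted p under 0.05), at a background of 17.8% of 13657 genes lower, 18.3% higher and 36.2% different in either direction. In V338Y mice 8 were lower and 0 higher, with 22.5% of 13868 genes lower, 24.4% higher and 46.9% different in either direction. The median log2 fold change of the 10 enzymes was -0.55 in WT mice, where that of all genes tested was 0.019. It was -0.77 in V338Y mice, where that of all genes was 0.072. In each genotype 8 of the 10 enzymes had no overlap between the ages, all lower at 19 mo, which 21.7% of all genes showed in WT and 21.9% in V338Y mice. Hk2 and Ldhb were the remaining 2 in both genotypes. As the tissue was measured in bulk, fewer cells of a type and less RNA per cell cannot be told apart.

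Of the entry steps, Hk2 passed in neither genotype and Pfkm in V338Y mice alone. Hk2 (ENSMUSG00000000628, chromosome 6 from 82725025 to 82774454) was at 294, 328, 311 and 332 CPM in 3 mo WT mice and at 351, 295 and 427 CPM in 19 mo WT mice 2, 4 and 5. In V338Y mice it was at 366, 274, 292 and 289 CPM at 3 mo and 261, 317, 239 and 489 CPM in 19 mo mice 2 to 5. The ages overlapped, and the highest level of all was that of V338Y mouse 5. The log2 fold change with age was 0.18 (edgeR adjusted p = 0.285, standard error 0.13) in WT and 0.11 (edgeR adjusted p = 0.687, standard error 0.21) in V338Y mice, with 95% intervals of -0.10 to 0.46 and -0.36 to 0.58. Without V338Y mouse 5 the value in V338Y mice turned to -0.14 (edgeR adjusted p = 0.413).

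Pfkm (ENSMUSG00000033065, chromosome 15 from 98092589 to 98132451), the committed step, was at 2534, 2512, 2950.3 and 2814 CPM in 3 mo WT mice and 2373, 2327 and 2176 CPM in 19 mo WT mice. V338Y mice had 2529, 2556, 2887 and 2511 CPM at 3 mo and 1932, 2296, 1829 and 1437 CPM at 19 mo. Old mice were below young mice in both genotypes, by a small margin in WT. The log2 fold change was -0.24 (edgeR adjusted p = 0.121, standard error 0.11) in WT mice and did not pass the threshold, while Pfkm fell in V338Y mice by 0.47 on the log2 scale (standard error 0.16, edgeR adjusted p = 0.0361). This call held without 19 mo V338Y mouse 3 but did not hold in the other 7 of 8 fits with 1 mouse removed (edgeR adjusted p = 0.0507 to 0.102), with log2 fold changes there of -0.50 to -0.35.

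The enzymes of the middle of the pathway were all lower at 19 mo. Gpi1 (ENSMUSG00000036427, chromosome 7 from 34201330 to 34230336), which makes fructose 6-phosphate, went from 536 ± 32.9 CPM (n = 4, SD) to 432 ± 26.4 CPM (n = 3, SD) in WT mice and from 516 ± 68.8 CPM (n = 4, SD) to 377 ± 25.2 CPM (n = 4, SD) in V338Y mice. Its log2 fold changes were the smallest of the middle steps, -0.31 (edgeR adjusted p = 0.0311, standard error 0.095) and -0.44 (edgeR adjusted p = 0.0135, standard error 0.12). In WT mice the Gpi1 call was lost in 5 of 7 fits that left out 1 mouse each (3 mo mouse 1, 3 or 4 or 19 mo mouse 4 or 5, edgeR adjusted p = 0.0575 to 0.0844), with values there of -0.33 to -0.27.

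Aldoa (ENSMUSG00000030695, chromosome 7 from 126795234 to 126800751), which splits fructose 1,6-bisphosphate, was at 11523, 11400.5, 12919 and 11943 CPM in 3 mo WT mice and 9129, 9167 and 7706 CPM in 19 mo WT mice. In V338Y mice the values were 13999.9, 12139, 14006 and 12127 CPM at 3 mo and 7381, 9735, 7693 and 5193 CPM at 19 mo. No old mouse reached the lowest young mouse, and V338Y mouse 5 was lowest. The log2 fold changes were -0.46 (edgeR adjusted p = 0.023, standard error 0.13) in WT and -0.79 (edgeR adjusted p = 0.0147, standard error 0.22) in V338Y mice. The Aldoa call in WT mice was lost without 3 mo mouse 1 (edgeR adjusted p = 0.0506) and without 3 mo mouse 3 (edgeR adjusted p = 0.0732).

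Tpi1 (ENSMUSG00000023456, chromosome 6 from 124810586 to 124814296), which interconverts the triose phosphates, showed a larger fall. It was at 1604, 1487, 1652 and 1853 CPM in 3 mo WT mice and 1022, 915 and 797 CPM in 19 mo WT mice. V338Y mice had 1742, 1462, 1711 and 1619.8 CPM at 3 mo and 935, 1081, 672 and 558 CPM at 19 mo. The groups stood well apart in both genotypes. The log2 fold change was -0.85 (edgeR adjusted p = 0.00127, standard error 0.12) in WT and -0.998 (edgeR adjusted p = 0.00339, standard error 0.20) in V338Y mice, or 0.553 and 0.501 of the young level.

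Pgam2 (ENSMUSG00000020475, chromosome 11 from 5801640 to 5803733), the mutase that moves the phosphate of 3-phosphoglycerate, had the largest fall of the 10 in WT mice. It was at 846, 878, 913 and 1065 CPM in 3 mo WT mice and 606, 480.0 and 334 CPM in 19 mo WT mice. V338Y mice had 995, 801, 934 and 847 CPM at 3 mo and 515, 625, 347 and 326 CPM at 19 mo. Every old mouse was below every young mouse, and both mice numbered 5 were the lowest of their groups. The log2 fold changes were -0.97 (edgeR adjusted p = 0.00452, standard error 0.19) and -0.97 (edgeR adjusted p = 0.00413, standard error 0.20). Without the mouse numbered 5 they were -0.78 in WT and -0.83 in V338Y mice.

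Eno3 (ENSMUSG00000060600, chromosome 11 from 70657202 to 70662513), the muscle enolase, went from 4297 ± 636 CPM (n = 4, SD) to 2518 ± 344 CPM (n = 3, SD) in WT and from 4270.2 ± 356 CPM (n = 4, SD) to 2363 ± 750.0 CPM (n = 4, SD) in V338Y mice. The old mice covered 1592 to 3316 CPM and the young mice 3774 to 5115 CPM, without overlap. Log2 fold changes were -0.77 (edgeR adjusted p = 0.00523, standard error 0.15) and -0.84 (edgeR adjusted p = 0.0118, standard error 0.22).

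At the end of the pathway Pkm and Ldha both fell. Pkm (ENSMUSG00000032294, chromosome 9 from 59656368 to 59679375) went from 2754 ± 147 CPM (n = 4, SD) to 1768 ± 221 CPM (n = 3, SD) in WT mice and from 3009 ± 219 CPM (n = 4, SD) to 1663 ± 326 CPM (n = 4, SD) in V338Y mice. Its log2 fold changes were -0.64 (edgeR adjusted p = 0.00386, standard error 0.12) and -0.84 (edgeR adjusted p = 0.00294, standard error 0.17). The counts are per gene and do not separate the M1 and M2 splice forms of pyruvate kinase.

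Ldha (ENSMUSG00000063229, chromosome 7 from 46841475 to 46855627), the A subunit typical of glycolytic fibres, was at 1881, 1865, 1948 and 2196 CPM in 3 mo WT mice and 1391, 1273 and 1096 CPM in 19 mo WT mice. V338Y mice had 2068, 1864, 2057 and 1815 CPM at 3 mo and 1207, 1572, 1035 and 763 CPM at 19 mo. Again no old mouse reached the young range, and both mice numbered 5 were lowest. The log2 fold changes were -0.65 (edgeR adjusted p = 0.00352, standard error 0.12) and -0.76 (edgeR adjusted p = 0.0126, standard error 0.20). They stayed past the threshold in all fits that left out 1 mouse, as did those of Tpi1, Pgam2, Eno3 and Pkm in both genotypes.

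Ldhb (ENSMUSG00000030246, chromosome 6 from 142490249 to 142507957), the B subunit, did not follow. It was at 51.7, 60.3, 67.6 and 54 CPM in 3 mo WT mice and 59.7, 68.5, 56 and 59.4 CPM in 3 mo V338Y mice, a narrow range. At 19 mo it was at 23.4, 34.4 and 147 CPM in WT mice 2, 4 and 5. V338Y mice 2, 3, 4 and 5 had 57.7, 28.4, 29 and 215 CPM. The mouse numbered 5 of each genotype was far above the young mice, WT mice 2 and 4 and V338Y mice 3 and 4 were below all of them, and V338Y mouse 2 was within their range. The log2 fold change with age was 0.22 (edgeR adjusted p = 0.762, standard error 0.52) in WT and 0.45 (edgeR adjusted p = 0.534, standard error 0.57) in V338Y mice. With the mouse numbered 5 left out, Ldhb was lower at 19 mo, with log2 fold changes of -1.02 in WT mice (edgeR adjusted p = 0.00381) and -0.64 in V338Y mice (edgeR adjusted p = 0.0411). These fits leave out the highest Ldhb value of each old group, and in WT mice only 19 mo mice 2 and 4 remain. Their p-values are therefore not a test of Ldhb in the old mice as a whole. Single mice thus set the sign of the Ldhb result. Without them 7 enzymes were lower at 19 mo in WT mice, where Gpi1 no longer passed. In V338Y mice 8 were lower, where Pfkm no longer passed, and Ldhb was counted in both genotypes. Over all genes 4186 passed in this fit of WT mice and 6391 in that of V338Y mice, in either direction. With all mice these were 4940 and 6505.

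The share of Ldhb in the sum of Ldha and Ldhb, per kb, gives the balance of the 2 subunits. It was 5.9 ± 0.856% (SD, n = 4) in 3 mo WT and 6.2 ± 0.786% (SD, n = 4) in 3 mo V338Y mice. At 19 mo it was 3.43, 5.4 and 22% in WT mice 2, 4 and 5, and 9.16, 3.67, 5.58 and 37.2% in V338Y mice 2 to 5. The A subunit was the larger part in every mouse, and the mice numbered 5 had the highest shares.

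**Figure D2:**
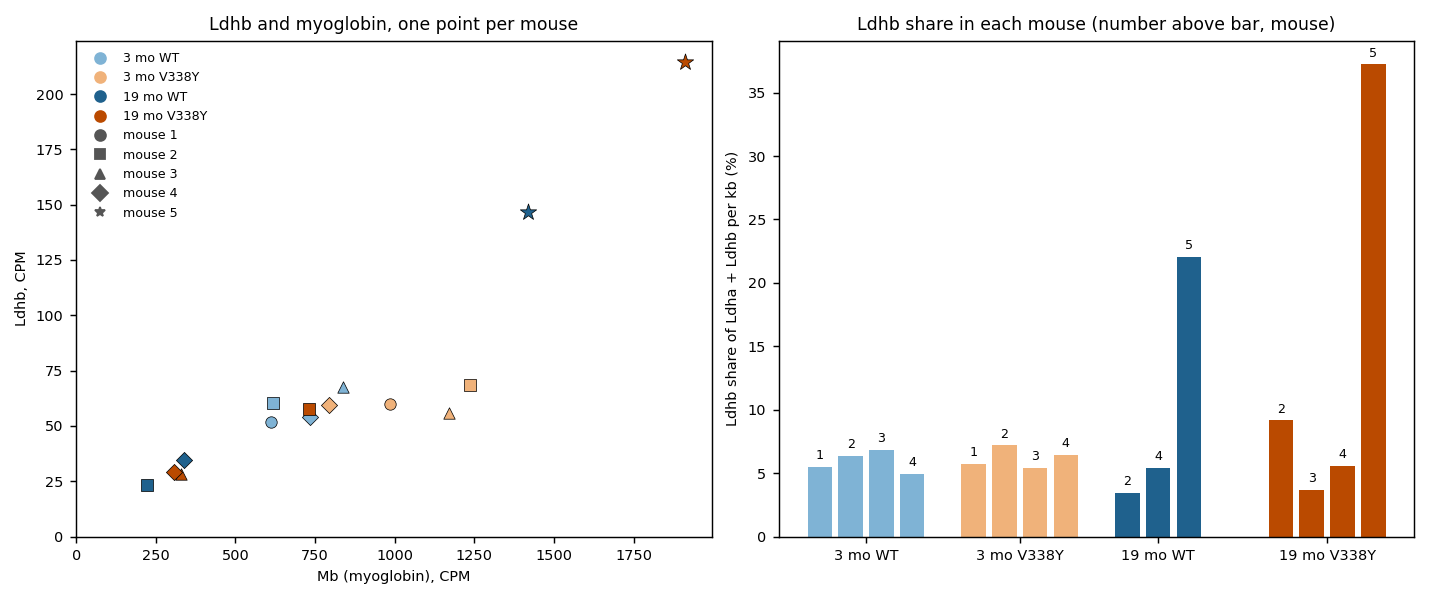
Left, Ldhb against myoglobin (Mb) in CPM, both on linear axes from 0, with 1 point per mouse, colour for the group and shape for the mouse number. Right, share of Ldhb in Ldha plus Ldhb per kb in each mouse, with the mouse number above the bar. The 19 mo mice numbered 5 lie apart in both panels, with Ldhb at 147 and 215 CPM and shares of 22 and 37.2%.

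Fibre-type transcripts moved with these values. The 8 slow fibre markers summed to 76.3 to 92.2 CPM in 3 mo WT, 64.7 to 204 CPM in 3 mo V338Y, 90.3 to 891 CPM in 19 mo WT and 76.9 to 2958 CPM in 19 mo V338Y mice. The highest sums were those of the mice numbered 5, and WT mouse 4 had 483 CPM with Ldhb at 34.4 CPM. All 8 slow markers were higher at 19 mo in WT mice, among them the slow myosin Myh7 with a log2 fold change of 5.91 (edgeR adjusted p = 0.00248, standard error 1.01). The rise of the sum was that of WT mice 4 and 5, as WT mouse 2, with 90.3 CPM, lay within the 3 mo WT range. Its Myh7, at 9.95 CPM, was above the 0.725 to 5.31 CPM of 3 mo WT mice. The markers were not fitted again without the mice numbered 5. In V338Y mice 0 of 8 passed the threshold and their median was 2.56. Among all genes, 17.8% were lower and 18.3% higher in old WT mice, and 22.5% lower and 24.4% higher in old V338Y mice. Of the 10 fast fibre markers, 4 were lower and 1 was higher in old WT mice, and 6 were lower and 1 was higher in old V338Y mice. The higher marker was the fast calcium pump Atp2a1 in each case (0.95 and 0.69, edgeR adjusted p = 0.00128 and 0.0258). Tnnc2, the fast troponin C, fell by 0.93 in WT (edgeR adjusted p = 0.00313) and 1.34 in V338Y mice (edgeR adjusted p = 0.000618).

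Myh4, the myosin of the fastest fibres, was lowest in V338Y mouse 5 with 22409.8 CPM, while WT mouse 5 with 40204 CPM was close to V338Y mouse 2 with 39868 CPM. Both mice numbered 5 had high Myh2, the myosin of fast oxidative fibres, at 4246 and 4880.3 CPM, where the other 19 mo mice had 243 to 876 CPM. Myoglobin (Mb), which stores oxygen in oxidative fibres, was at 1417 and 1911 CPM in them, 223 to 731 CPM in the other 19 mo mice and 612 to 1236 CPM at 3 mo. In V338Y mouse 5 the 5 neutrophil markers also summed to 545 CPM, whereas the other mice had at most 24.2 CPM. The part of these differences in the values of the enzymes was not tested. With the mouse numbered 5 left out of each genotype, Tpi1, Pgam2, Eno3, Pkm and Ldha still passed as lower at 19 mo (edgeR, adjusted p under 0.05).

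**Figure D3:**
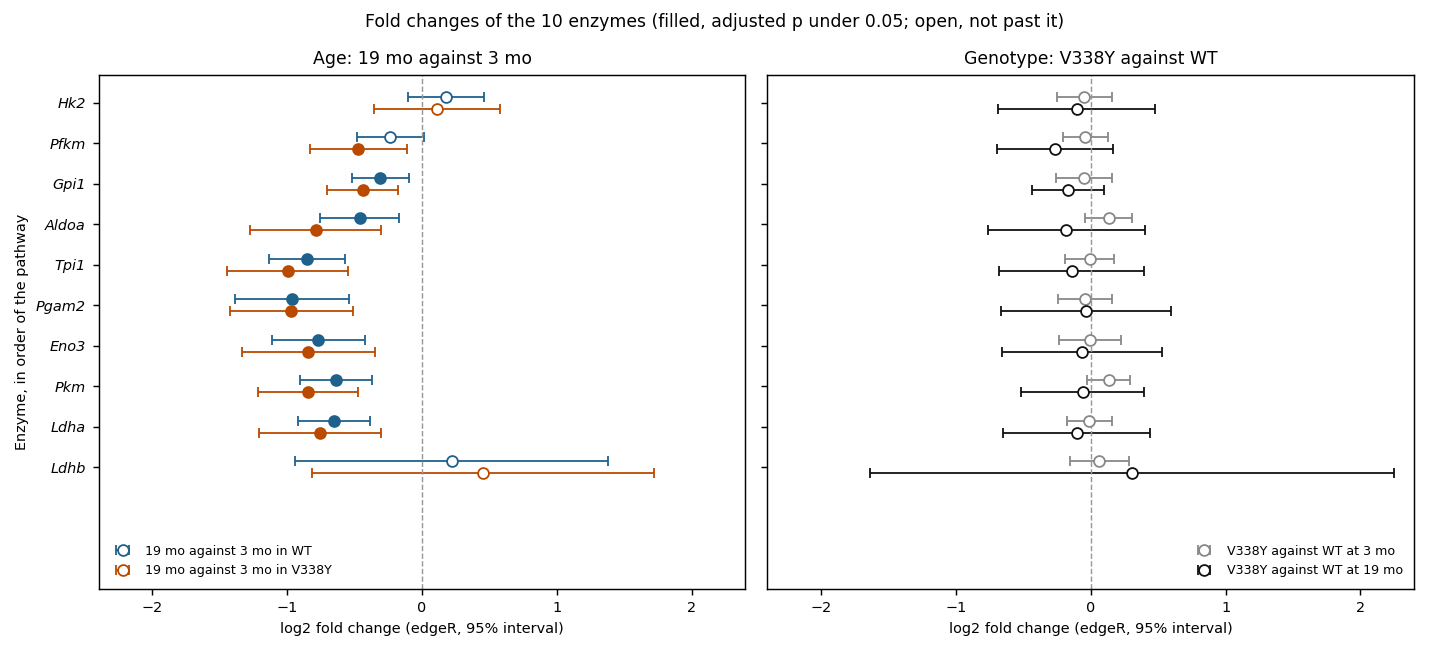
Log2 fold change of the 10 enzymes with 95% intervals from edgeR, for age on the left and genotype on the right, in pathway order from top to bottom. Filled points passed an adjusted p of 0.05 and open points did not. The age values from Gpi1 to Ldha lie left of 0 in both genotypes, and all genotype intervals include 0.

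The second question was whether the mutation altered these transcripts. At 3 mo 0 of the 10 enzymes differed between V338Y and WT mice (edgeR adjusted p under 0.05), at a background of 0.075% of 13333 genes. An unadjusted p under 0.05 was reached by 0 of the 10 and by 1293 of the 13333 genes. DESeq2 also called 0 of the 10, and 66 genes in all. The log2 fold changes were between -0.053 for Gpi1 and 0.13 for Aldoa, and all 95% intervals lay between -0.26, the lower limit of Gpi1, and 0.31, the upper limit of Aldoa. The next highest value, for Pkm, was 0.13 (edgeR adjusted p = 0.593, standard error 0.072). No enzyme had groups without overlap, which 4.71% of all genes had.

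At 19 mo the genotypes again differed in 0 of the 10 enzymes (edgeR adjusted p under 0.05), at a background of 0.0434% of 13833 genes. An unadjusted p under 0.05 was reached by 0 of the 10 and by 1235 of the 13833 genes. DESeq2 called 0 of the 10, and 62 genes in all. The 3 same-numbered pairs of a WT and a V338Y mouse had deviations correlated by 0.132 to 0.4 at this age. A pair of different number, WT mouse 2 and V338Y mouse 3, had 0.467, so a pairing by number is not settled. A replicate block for the same-numbered pairs gave 110 called genes in place of 6, still with 0 of the enzymes. Of the 10 enzymes 9 had a log2 fold change below 0 and Ldhb one above 0, with a median of -0.11 where that of all genes was 0.008. Without V338Y mouse 5, Tpi1, Pgam2, Eno3, Pkm and Ldha were above 0, between 0.0038 for Tpi1 and 0.094 for Pgam2, so the count of 9 rests on that mouse. Gpi1 was the 1 enzyme whose groups did not overlap, by a narrow margin, with 455, 439 and 403 CPM in WT and 386, 401, 342 and 379.9 CPM in V338Y mice. Such a separation was found in 9.79% of all genes, and with V338Y lower in 5.28%. The log2 fold change of Gpi1 was -0.17 (edgeR adjusted p = 0.682, standard error 0.12), with an interval of -0.44 to 0.098. That of Pfkm was -0.26 (edgeR adjusted p = 0.693, standard error 0.19), with an interval of -0.70 to 0.17, and its groups overlapped. Intervals were wider than at 3 mo, and for the 8 enzymes other than Pfkm and Ldhb they lay between -0.76 and 0.59. That of Ldhb ran from -1.64 to 2.25 around a value of 0.30. Without V338Y mouse 5 the Ldhb value was -0.80, without WT mouse 5 it was 1.54 and without both mice numbered 5 it was 0.44 (edgeR adjusted p = 0.766).

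Whether age acted differently in the genotypes was tested as an interaction over all 15 mice. It was past an adjusted p of 0.05 for 0 of the 10 enzymes (0% of 14128 genes by edgeR, 1361 genes at an unadjusted p under 0.05). At an unadjusted p under 0.05 0 of the enzymes passed, and DESeq2 called 26 genes and 0 of the enzymes. The largest differences among the enzymes that fell were those of Aldoa, -0.34 (edgeR adjusted p = 0.678, standard error 0.25) with an interval of -0.87 to 0.19, and Pfkm, -0.25 (edgeR adjusted p = 0.701, standard error 0.19) with an interval of -0.66 to 0.16. The call of Pfkm in V338Y but not in WT mice is therefore not shown to be a difference between the genotypes.

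Mice of one group differed from each other in a shared way. Taken as deviations from the group mean on the log2 scale, Aldoa, Tpi1, Pgam2, Eno3, Pkm, Ldha and Pfkm had pairwise Pearson correlations of 0.74 to 0.97 over the 15 mice, which share their libraries and scaling. The highest, 0.97, were between Eno3 and Tpi1 and between Eno3 and Ldha. Gpi1 had 0.43 to 0.57 with the same enzymes, and 0.65 to 0.73 without both mice numbered 5, where the 7 had 0.60 to 0.97. Ldhb went the other way, with -0.64 to -0.83, and was nearest to Hk2 (0.73). Without both mice numbered 5 (13 mice) the correlation of Hk2 with Ldhb was -0.3, and Hk2 instead correlated with Pgam2 (0.82). Ldhb then had -0.036 to -0.50 with the 7 enzymes. The pairwise values among Eno3, Ldha, Pgam2 and Tpi1 stayed at 0.92 to 0.97.

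Among 7306 genes with a mean of at least 10 CPM, those most like Ldhb by the same measure were Atp1b1, a subunit of the sodium pump (r = 0.988), Bdh1, which oxidises ketone bodies (0.978), and Hadha, of mitochondrial fatty acid oxidation (0.976). Without both mice numbered 5 these were 0.889, 0.793 and 0.787. Most like Ldha were Pgm1, a phosphoglucomutase (0.954, or 0.938 without these mice), Cand2 (0.937) and Fam213b (0.936). Pygm, the muscle glycogen phosphorylase, was nearest to Aldoa (0.927). Kctd15 (0.958) was nearest to Pfkm and Pcnx (0.964) to Hk2. These are descriptions over 15 mice, without a test.

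Genes around the 10 enzymes were read from 4 lists of related genes. Of 18 other glycolytic enzymes and isoforms, 14 were tested for age. In WT mice 4 fell and 1 rose, while 3 fell and 4 rose in V338Y mice. Of all genes 36.2% passed in WT and 46.9% in V338Y mice, in either direction, so these counts are near the background. Pgk1, the ATP-producing phosphoglycerate kinase, was at 289, 291, 330.3 and 378 CPM in 3 mo WT mice and 175, 159 and 166 CPM in 19 mo WT mice. In V338Y mice it was at 302 to 415 CPM at 3 mo and 143 to 179 CPM at 19 mo. It fell without overlap, with log2 fold changes of -0.95 (edgeR adjusted p = 0.000552, standard error 0.11) and -1.18 (edgeR adjusted p = 0.000205, standard error 0.13). Gapdh, the step before, was at 1172 ± 60.6 CPM (n = 4, SD) and 1073 ± 42.1 CPM (n = 3, SD) in WT mice, with log2 fold changes of -0.13 (edgeR adjusted p = 0.323, standard error 0.095) and, in V338Y mice, -0.19 (edgeR adjusted p = 0.447, standard error 0.20). Gapdh has many processed pseudogenes, so its count depends on how reads were shared among them. Bpgm, which makes 2,3-bisphosphoglycerate, fell by 0.54 (edgeR adjusted p = 0.0164) and 0.81 (edgeR adjusted p = 0.000496). Ldhd, the mitochondrial D-lactate dehydrogenase, fell by 0.49 (edgeR adjusted p = 0.0125) and 0.48 (edgeR adjusted p = 0.0377).

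Of the other isoforms at the steps of the 10 enzymes, Hk1 passed in both genotypes. Hk1, at 5.64 to 11.6 CPM in young and 11.3 to 20.6 CPM in old mice, rose with age in both genotypes (0.69 in WT, edgeR adjusted p = 0.0121, and 0.98 in V338Y, edgeR adjusted p = 0.00251). Pfkp, the platelet phosphofructokinase, rose in V338Y mice by 1.01 (edgeR adjusted p = 0.00091) and was 0.32 in WT mice (edgeR adjusted p = 0.27). Pfkl, the liver form, was 0.81 in V338Y (edgeR adjusted p = 0.0156) and -0.24 in WT mice, where mouse 1 at 3 mo had 25.4 CPM and the other 3 had 6.88, 9.89 and 9.16 CPM. Pgam1, at 1.56 to 5.29 CPM in young and 1.85 to 7.65 CPM in old mice, had 0.98 in V338Y (edgeR adjusted p = 0.0222) and -0.20 in WT mice. Hk3 and Eno1 did not pass in either genotype, with -0.089 and -0.39 in WT and 1.16 and 0.43 in V338Y mice. The difference of the age effect between the genotypes did not pass for any of Pfkp, Pfkl and Pgam1 (edgeR adjusted p = 0.484, 0.532 and 0.506 for the interaction). Macrophage and endothelial markers were also higher at 19 mo (3 of 5 and 2 of 4 genes in WT, 3 of 5 and 3 of 4 in V338Y mice). In V338Y mice 5 of 5 neutrophil and 2 of 6 adipocyte markers were higher too. Of all genes 18.3% were higher in WT and 24.4% in V338Y mice. The neutrophil sum was 545 CPM in 19 mo V338Y mouse 5 and 2.3 to 24.2 CPM in the other 19 mo V338Y mice. In WT mice 1 adipocyte marker was higher and 2 were lower, and 0 of 2 neutrophil markers tested passed. At 3 mo WT mouse 1, with the high Pfkl, had the highest adipocyte sum (1735 CPM, with 546 to 1395 CPM in the others). The part of these cell types in these isoforms was not tested.

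**Figure D4:**
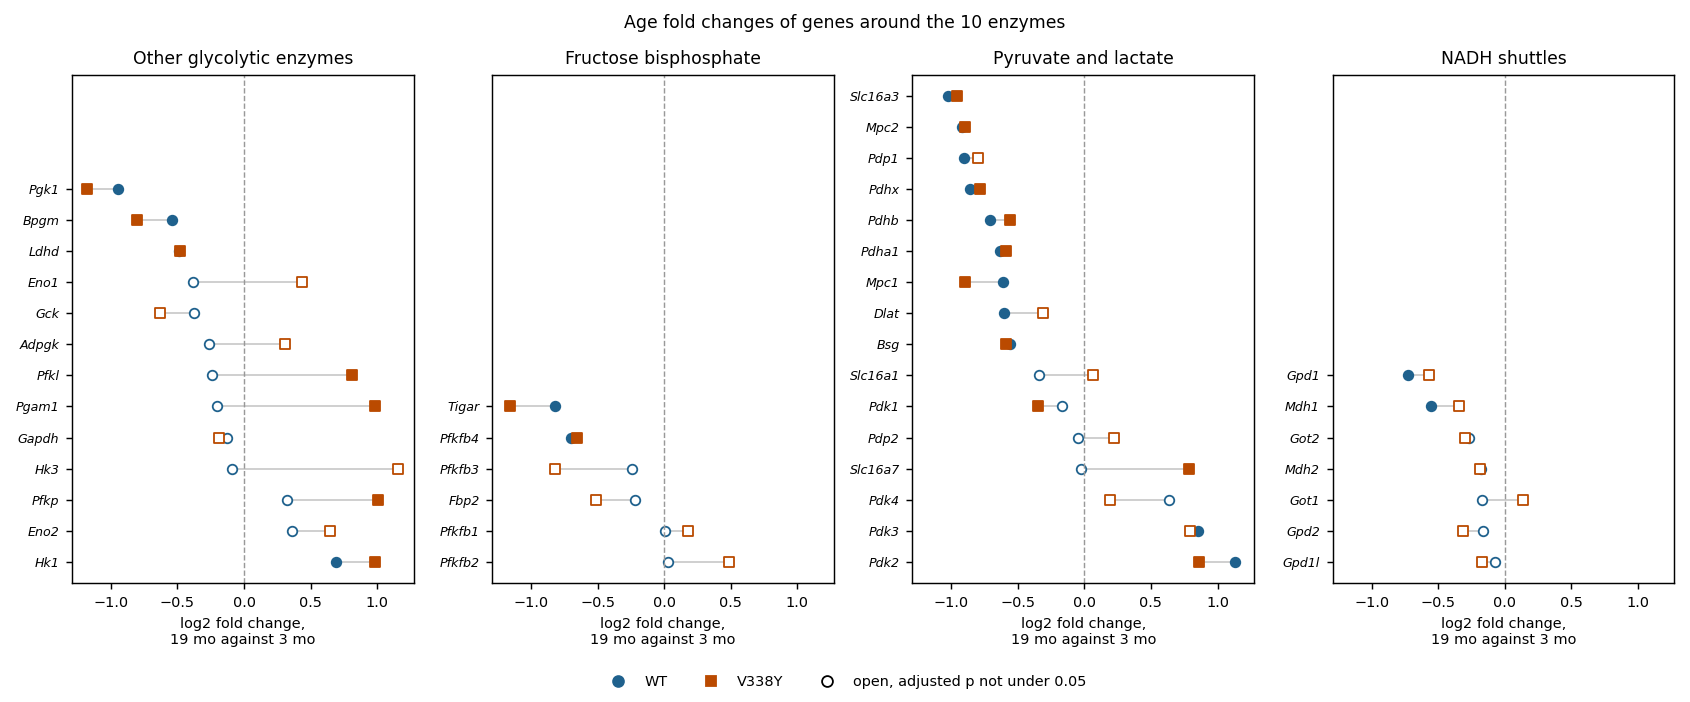
Log2 fold change from 3 mo to 19 mo of genes of the 4 lists around the 10 enzymes, circles for WT and squares for V338Y mice, filled where the edgeR adjusted p was under 0.05. Genes are sorted by the WT value, and genes not tested in both genotypes or beyond the axis, such as Fbp1, are left out. Pgk1, Tigar, Slc16a3 and Mpc2 lie to the left in both genotypes, and Pdk2 and Hk1 to the right.

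Enzymes that set fructose 2,6-bisphosphate, the activator of phosphofructokinase, or reverse its step fell or did not pass. Of 7 tested in WT mice 3 were lower and 0 higher, and of 6 tested in V338Y mice 2 were lower and 0 higher. Of all genes 17.8% were lower and 18.3% higher in WT mice, and 22.5% lower and 24.4% higher in V338Y mice. Tigar, a fructose bisphosphatase, was at 121 to 186 CPM in young and 51.9 to 100.01 CPM in old mice, with log2 fold changes of -0.82 (edgeR adjusted p = 0.00111, standard error 0.12) and -1.16 (edgeR adjusted p = 0.000564, standard error 0.16). Pfkfb4, a bifunctional kinase and phosphatase, fell by 0.70 (edgeR adjusted p = 0.00113) and 0.66 (edgeR adjusted p = 0.00493). Pfkfb3 was -0.24 and -0.82, Pfkfb2 0.027 and 0.49, and the muscle bisphosphatase Fbp2 -0.22 and -0.52, and none of these passed. Fbp1, the liver form, was at most 3.58 CPM in any mouse and was lower in old than in young WT mice (edgeR adjusted p = 0.00672).

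Carriers and enzymes that handle pyruvate and lactate were also read. Of 16 tested, 9 were lower and 2 higher in old WT mice, and 8 were lower and 2 higher in old V338Y mice. The shares of all genes were 17.8% lower and 18.3% higher in WT mice, and 22.5% lower and 24.4% higher in V338Y mice. Slc16a3 (MCT4), which exports lactate from fast fibres, was at 241, 287, 307 and 294 CPM in 3 mo WT mice and 132, 148 and 135 CPM in 19 mo WT mice. V338Y mice had 220.4 to 264 CPM and 72 to 183 CPM. The log2 fold changes were -1.03 (edgeR adjusted p = 0.000298, standard error 0.11) and -0.96 (edgeR adjusted p = 0.00799, standard error 0.23). Both subunits of the mitochondrial pyruvate carrier fell, Mpc1 by 0.61 (edgeR adjusted p = 0.00498) and 0.89 (edgeR adjusted p = 0.000968) and Mpc2 by 0.92 (edgeR adjusted p = 0.000212) and 0.90 (edgeR adjusted p = 0.00155) in WT and V338Y mice. Of pyruvate dehydrogenase, Pdhb fell by 0.71 and 0.56 (edgeR adjusted p = 0.00112 and 0.00903) and Pdhx by 0.86 and 0.79 (edgeR adjusted p = 0.000914 and 0.0009). Pdk2, a kinase that inhibits pyruvate dehydrogenase, rose from 47.6 to 72.4 CPM to 89.9 to 152 CPM, with log2 fold changes of 1.13 (edgeR adjusted p = 0.00124, standard error 0.16) and 0.86 (edgeR adjusted p = 0.000404, standard error 0.11). Slc16a1 (MCT1), the carrier of oxidative fibres and not among the genes chosen by rule, was highest in both 19 mo mice numbered 5 (67 and 82.2 CPM, against 38.5 to 58.1 CPM at 3 mo).

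Shuttles carry the electrons of NADH into mitochondria. Of 7 such genes, 2 fell and 0 rose with age in WT mice, where 36.2% of all genes passed, and 0 passed in V338Y mice by edgeR, where 46.9% of all genes passed. The median log2 fold change of the 7 in V338Y mice was -0.3. Cytosolic glycerol 3-phosphate dehydrogenase (Gpd1) fell by 0.73 in WT mice (edgeR adjusted p = 0.0271) and was -0.57 in V338Y mice (edgeR adjusted p = 0.0537). Cytosolic malate dehydrogenase (Mdh1) fell by 0.56 in WT mice (edgeR adjusted p = 0.0433) and was -0.35 in V338Y mice (edgeR adjusted p = 0.246), with 412 and 510.4 CPM in the mice numbered 5 and 206 to 354 CPM in the other 19 mo mice. The mitochondrial Got2, Gpd2 and Mdh2 and the cytosolic Gpd1l were between -0.31 and -0.071 in both genotypes. Between the genotypes 0 genes of any of the 4 lists passed at 3 mo or at 19 mo by edgeR. At 19 mo Hk1 was at 11.3 to 13.1 CPM in WT and 13.7 to 20.6 CPM in V338Y mice. Eno1 was at 22.8 to 25.5 CPM in WT and 28.8 to 38.4 CPM in V338Y mice. Both were higher in V338Y mice without overlap, and 9.79% of all genes had no overlap in either direction. Hk3, Pfkl, Pfkp and Pgam1 overlapped between the genotypes.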

How the data were processed

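Quadriceps RNA of 15 mice was sequenced by the authors (TRIzol extraction, stranded mRNA libraries, single-end reads on a HiSeq 2500). The submitters' processing notes name CASAVA 1.8, bcl2fastq 1.8.4, STAR 2.4.2a and GRCm38 for mouse, whereas the methods name RSEM with an Ensembl annotation of another mouse build number. The files hold one estimated count per gene and mouse, deposited by the authors as whole numbers and not normalised. A growth protocol for a human cell line stands in the labels of the muscle samples and was not used.

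From these counts, a gene was retained if 50% or more of the mice in either group of a comparison had 10 or more counts. Retained genes were scaled by TMM and tested with the quasi-likelihood test of edgeR 4.0.16 (limma 3.58.1, R 4.3.3), with Benjamini-Hochberg adjustment over all genes and a threshold of 0.05. Each pairwise comparison was fitted on its own groups, and the interaction on all 15 mice. Age and genotype comparisons share groups of mice. The counts were whole numbers already, so none had to be rounded. Total counts were 8250653 to 18968132 per mouse. With groups of 3 or 4 mice and no statement on shared litters, p-values measure the spread between these mice.

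Positions and exon lengths came from GENCODE vM21 (GRCm38), which matched 37607 of 39179 identifiers. CPM per kb is the CPM over the summed exon length. Promoter windows of 250 bases came from RefSeq (GRCm38.p6). Close copies were searched with blastn 2.17.0 (at least 95% identity over at least 200 bases). Tables were handled with pandas 2.3.3. No 2 files held identical values.

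The enzymes, the lists around them and the tests were chosen with earlier results of these data known. All 10 enzymes were named. From each of the 4 lists the 6 genes with the smallest adjusted p in any pairwise comparison were named, with isoform partners, Gapdh and Pgk1, and for 5 enzymes the 3 genes outside the lists with the highest correlation among genes of at least 10 CPM. One gene that this rule would name is not reported here.

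Alternatives were other scalings, other filters on low counts, DESeq2 1.42.0, a fit of all mice, the mouse number as a replicate block and leaving out each mouse. Leaving out both 19 mo mice numbered 5 was added after seeing the data. As a pairing of the genotypes at 19 mo the mouse numbers are not settled. The deviations of same-numbered mice correlated by 0.132, 0.239 and 0.4 there. WT mouse 2 and V338Y mouse 3 correlated more, by 0.467, while the remaining pairs of different number were between -0.407 and -0.021. The scripts were tested on simulated data.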

Additional observations from a re-analysis of the deposited data

Results flagged for a closer look

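Single mice lay far from the rest of their group for 2 of the 30 combinations of an enzyme and a group of 4 mice that were examined with Dixon's criterion, and chance alone marks about 1 in 20. Pfkm in 3 mo V338Y mouse 3 was 2887 CPM, above a next highest value of 2556 CPM, and the other 3 mice lay between 2511 and 2556 CPM. Ldhb in 19 mo V338Y mouse 5 was 215 CPM, above a next highest value of 57.7 CPM. The same mouse had the highest slow fibre and neutrophil marker sums, and the part of these in the Ldhb value was not tested. Groups of 3 mice were not examined, so the high Ldhb of 19 mo WT mouse 5 (147 CPM) could not be marked in this way.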

How the results depend on the processing

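Of 860 values of the 10 enzymes under alternative settings, 778 kept their direction and their side of the threshold, 21 lost a call, 1 gained one and 60 changed sign. The cause was not tested. Other scalings moved no enzyme by more than 0.0368 on the log2 scale. Upper-quartile scaling gave 0.0017 for Tpi1 and 0.0052 for Eno3 for genotype at 3 mo, and 0.014 for Pgam2 in the interaction. For all genes, 33 were called at 3 mo without a filter on low counts and 66 by DESeq2, compared with 10. At 19 mo 14 were called without a filter, 62 by DESeq2 and 110 with the replicate block, compared with 6. In the interaction 5 were called without a filter, 26 by DESeq2 and 28 with the replicate block, compared with 0, and none of these were among the 10 enzymes.

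The mouse number as a replicate block was not borne out as a pairing between ages or at 3 mo. With it 2229 genes differed with age in WT mice, compared with 4940, and 5 of the enzymes passed there. In V338Y mice 5505 genes differed, compared with 6505, and 6 of the enzymes passed. Ldhb was among them in both genotypes. In WT mice Gpi1 (edgeR adjusted p = 0.332), Aldoa (edgeR adjusted p = 0.219) and Pkm (edgeR adjusted p = 0.056) no longer passed, nor did Pfkm (edgeR adjusted p = 0.112), Gpi1 (edgeR adjusted p = 0.0596) and Aldoa (edgeR adjusted p = 0.0551) in V338Y mice. Hk2 turned to -0.030 and -0.062 and Ldhb to -0.998 and -0.74 in WT and V338Y mice, and Eno3 at 3 mo to 0.0026. Mice whose number has no partner at the other age add nothing to the age effect under this block. This takes out both mice numbered 5, 3 mo WT mice 1 and 3 and 3 mo V338Y mouse 1. The age effect in WT mice then rests on mice 2 and 4 of each age. In the fit of all 15 mice Aldoa no longer passed in WT mice (edgeR adjusted p = 0.0637), and DESeq2 called Pfkm in WT mice (adjusted p = 0.0376).

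Leaving out 1 mouse at a time gave 3 to 14 genes called for genotype at 3 mo, 2 to 7 at 19 mo, 3431 to 4837 for age in WT mice, 5182 to 6448 in V338Y mice and 0 for the interaction, with 5 to 7 and 7 to 8 of the enzymes called for age. Log2 fold changes that changed sign ranged over -1.02 to 0.63 for Ldhb for age in WT mice and -0.14 to 0.23 for Hk2 and -0.64 to 0.73 for Ldhb for age in V338Y mice. For genotype at 3 mo they ranged over -0.15 to 0.00090 for Hk2, -0.089 to 0.0022 for Pfkm, -0.13 to 0.0043 for Gpi1, -0.057 to 0.052 for Tpi1, -0.10 to 0.029 for Pgam2, -0.064 to 0.090 for Eno3 and -0.040 to 0.044 for Ldha. For genotype at 19 mo they ranged over -0.36 to 0.045 for Hk2, -0.30 to 0.0038 for Tpi1, -0.23 to 0.19 for Pgam2, -0.26 to 0.085 for Eno3, -0.17 to 0.053 for Pkm, -0.28 to 0.049 for Ldha and -0.80 to 1.54 for Ldhb. In the interaction they ranged over -0.31 to 0.072 for Hk2, -0.32 to 0.016 for Tpi1, -0.21 to 0.21 for Pgam2, -0.29 to 0.093 for Eno3, -0.30 to 0.064 for Ldha and -0.86 to 1.46 for Ldhb. With both 19 mo mice numbered 5 left out, Eno3 in the interaction was 0.0025. The lowest counts among the enzymes were those of Ldhb, with 289 in the mouse with the fewest, so depth limits Ldhb most.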

Other observations

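Pdk4, a kinase that inhibits pyruvate dehydrogenase and was named after its values were seen, varied widely between mice of one group. It was at 63.1, 1089 and 1960.4 CPM in 19 mo WT mice 2, 4 and 5 and at 93.3, 54.6, 1157 and 2604 CPM in 19 mo V338Y mice 2 to 5, against 414 to 1519 CPM at 3 mo.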
